A study of Mus musculus with 30 samples.

Results

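Hepatic uptake and efflux transporters are the membrane proteins that carry bile salts, hormones, conjugated metabolites and drugs into hepatocytes and out of them. The members described here were the 9 genes *Slco1a1*, *Slco1a4*, *Slco1b2*, *Slco2b1*, *Slc22a7*, *Abcc2*, *Abcc3*, *Abcc4* and *Abcb4*, chosen by symbol, and all 9 were among the 14173 genes of the count tables. They were measured by 3′ end sequencing of RNA from whole livers of 30 male C57BL6/J mice, 6 per diet, each mouse giving 1 library. Mice were singly housed and were first fed Cas-20% or Soy-20%. At 12 weeks of age some were switched from Cas-20% to Cas-5%, or from Soy-20% to Soy-20% + SAA or Soy-10%. The others stayed on Cas-20% or Soy-20%. From then on the 5 diets were fed for 12 weeks, and mice were fasted for 4 h before collection at 6 months of age. Cas-20% (20% protein, 0.57 g methionine and 0.41 g cystine per 100 g diet) was the casein control and Cas-5% (5% protein, 0.15 g and 0.1 g) the casein-restricted diet. Soy-20% (20% protein, 0.22 g and 0.22 g) held the sulfur amino acids that soy protein brings, Soy-20% + SAA (20% protein, 0.58 g and 0.41 g) was the same protein level with sulfur amino acids added, and Soy-10% (11.5% protein by the sample labels, 0.13 g and 0.13 g) was the soy-restricted diet. Cas-5% against Cas-20% and Soy-10% against Soy-20% + SAA therefore differed in total protein and in sulfur amino acids together, which cannot be told apart in these 2 comparisons. Soy-20% + SAA against Soy-20% differed in sulfur amino acids at the same protein level. Soy-10% against Cas-5% differed in protein source and in protein level (11.5% against 5%), which cannot be told apart there either. Comparisons with Soy-20%, and those of Cas-20% with Cas-5% or with Soy-20% + SAA, also set switched mice against mice that stayed on their diet.

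Uptake from sinusoidal blood runs largely through organic anion transporting polypeptides of the Slco family and organic anion transporters of the Slc22 family, which exchange or cotransport their cargo. Efflux uses ATP-driven pumps. *Abcc2* (MRP2) and *Abcb4* (MDR2, the phosphatidylcholine floppase) face the bile canaliculus, whereas *Abcc3* (MRP3) and *Abcc4* (MRP4) face the blood and are known to be raised when bile flow is blocked. Their transcription is known to be set by nuclear receptors such as CAR, PXR, FXR and PPARα, by NRF2, and for several members by sex-specific growth hormone signalling.

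Library totals ranged from 7694015 to 14565542 counts. The hepatocyte markers were abundant in each diet, with a summed level of 64121 to 94599 CPM (counts scaled to the library total) over 7 of 8 listed genes, and the markers of other liver cells summed to far less. Libraries 3 to 6 of Soy-20% + SAA stood apart: their gene levels rose with the GC content of the transcript 3′ end, with slopes of 0.059, 0.188, 0.178 and 0.204 on the log2 scale per 10% GC, against −0.060 to 0.027 in the 24 livers of the other diets and −0.027 and −0.028 in Soy-20% + SAA livers 1 and 2. Calls that rest on Soy-20% + SAA are therefore also given without these libraries, which leaves 2 livers on that diet. Library 4 of Soy-10% held 555 CPM of pancreatic acinar markers (6 of 9 listed genes), against 16.9 to 55.7 CPM in the other livers. Leaving it out changed no transporter call in the comparisons of Soy-10% with Soy-20% + SAA or Cas-5%. Levels below are the deposited normalized counts, which are not scaled for length and are compared between diets, not between genes. Fold changes are on the log2 scale with their standard error (SE), and adjusted p is from edgeR's quasi-likelihood test with Benjamini-Hochberg adjustment over all genes tested, called at 0.05 or less.

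Most of these transporters differed between diets. Over the 5 diets, 7 of the 9 passed the test that any diet differed, with adjusted p from 1.98e-07 for *Slco1a4* to 0.0186 for *Abcc2*, while *Slco1a1* (adjusted p = 0.531) and *Slco1b2* (adjusted p = 0.87) did not. Of all genes tested, 43.4% passed the same test. Without Soy-20% + SAA libraries 3 to 6 the count was 6, with *Abcc2* lost (adjusted p = 0.0714). Casein restriction called 4 of the 9 (no test of that share was made on so few genes), with *Slco1a4*, *Slco2b1* and *Slc22a7* lower and *Abcb4* higher, beside 24.9% of all genes (13.3% lower and 11.6% higher). Soy restriction against Soy-20% + SAA also called 4, with the same 3 uptake genes lower and *Abcc4* higher, beside 17% of all genes (8.47% lower and 8.51% higher). Against unsupplemented Soy-20% none of the 9 was called by edgeR or DESeq2, and edgeR called 0.866% of all genes. In that comparison 3 of the 9 had an unadjusted edgeR p under 0.05, as had 1460 of the 11897 genes tested. The casein and the supplemented soy comparison share no liver, whereas the soy comparisons share the Soy-10% livers. The median log2 fold change of the 9 was 0.06 for casein and −0.04 for soy against Soy-20% + SAA, beside medians of 0.02 and −0.01 over all genes. In whole-liver RNA, fewer cells of a type and less RNA per cell cannot be told apart.

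**Figure D1:**
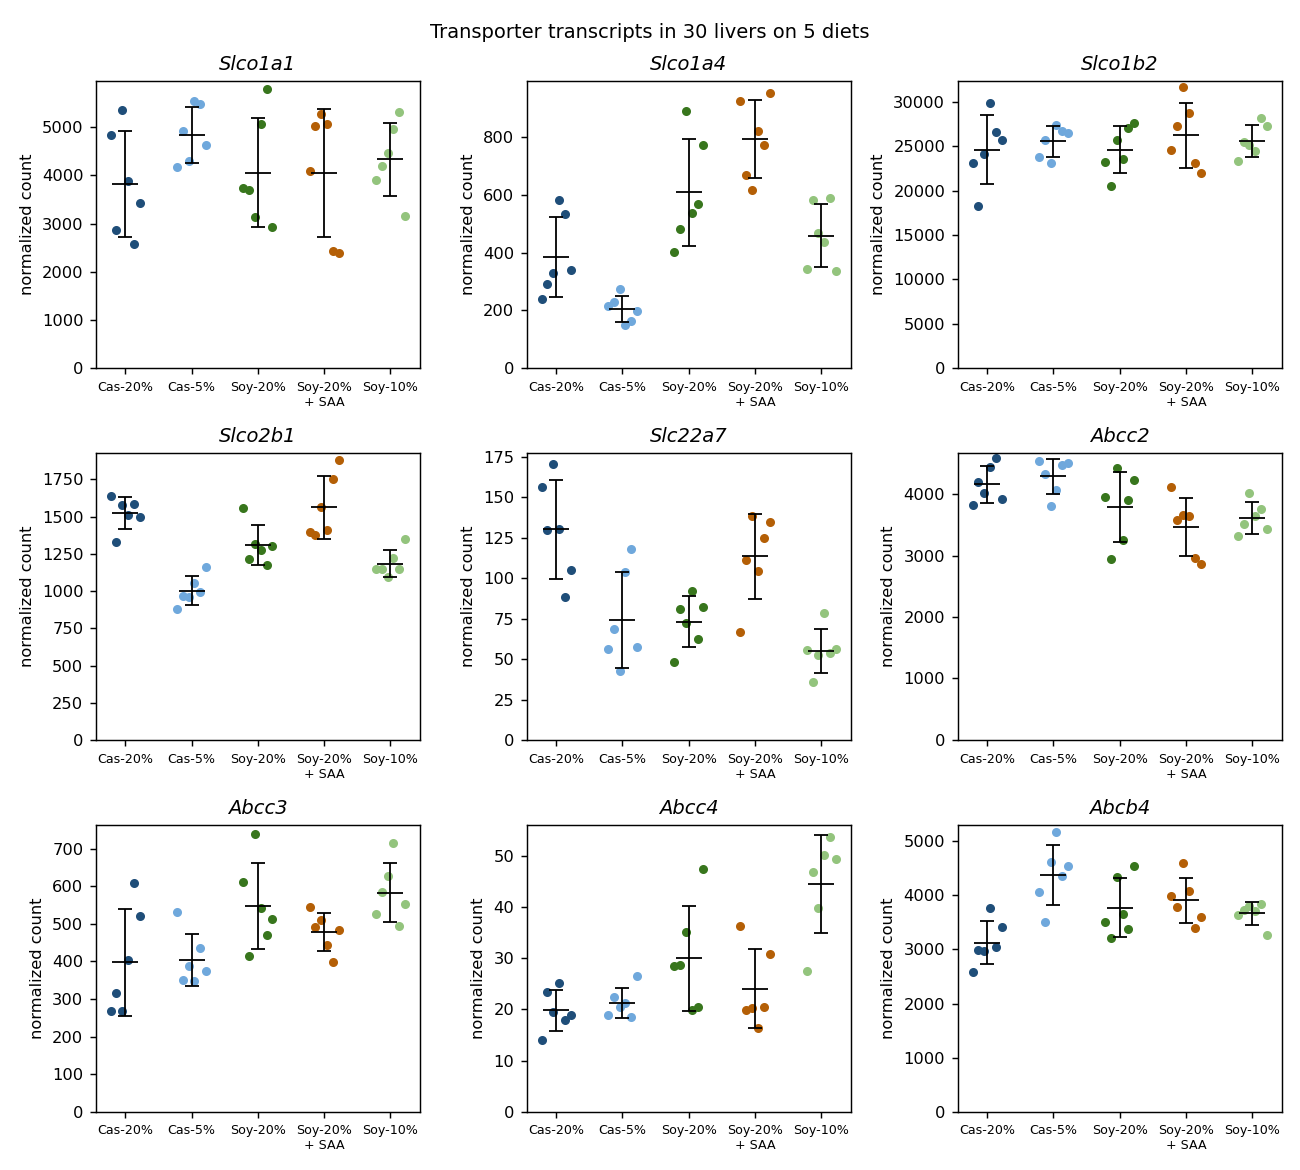
Normalized counts of the 9 transporters (vertical axes, from 0) in each of 30 livers by diet; points are livers, the horizontal line is the mean and the bar the SD of 6 livers. *Slco2b1* on Cas-5% lay at 879 to 1163, below every Cas-20% liver, and *Abcc4* had its highest median, 48.1, on Soy-10%.

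Among the uptake carriers, *Slco1a4* (OATP1A4, a sinusoidal carrier of organic anions and steroid conjugates known to respond to PXR and CAR; chromosome 6 from 141805440 to 141856199 on the minus strand of GRCm38) had the smallest adjusted p over the 5 diets. On Cas-20% its normalized count ran from 240 through a median of 334 to 582, and on Cas-5% from 151 through 206 to 275. On Soy-20% + SAA it ran from 618 through 799 to 955, and on Soy-10% from 335 through 453 to 588. All 6 Soy-10% livers lay below all 6 Soy-20% + SAA livers, while the Cas-5% range met that of Cas-20% at its upper end. The log2 fold change was −0.91 (SE 0.20, adjusted p = 0.00323) for casein restriction and −0.79 (SE 0.15, adjusted p = 0.00476) for soy restriction. Without Soy-20% + SAA libraries 3 to 6 the soy value was −0.80 (adjusted p = 0.0453), still called. The difference of both effects was −0.12 (SE 0.27, adjusted p = 0.827), and its sign turned without Cas-20% liver 4 or 5.

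*Slco1a4* also differed between casein and soy diets, although the restricted ones also differed in protein level. The Soy-20% + SAA livers lay above every Cas-20% liver (log2 fold change 1.03, SE 0.20, adjusted p = 0.03), and the Soy-10% livers lay above every Cas-5% liver (1.15, SE 0.15, adjusted p = 0.000132). Of all genes, 1.01% were called higher and 1.18% higher without overlap between the controls, and 6.14% and 4.09% between the restricted diets. The control difference depended on single livers. It was 1.05 but not called without Soy-20% + SAA libraries 3 to 6 (adjusted p = 0.505), and leaving out any of 7 single livers gave an adjusted p of 0.0503 to 0.0739. Soy-20% livers, at 403 through 552 to 889, overlapped with both other soy diets. The order of the means was Soy-20% + SAA (794 ± 135, SD, n = 6), Soy-20% (609 ± 185), Soy-10% (459 ± 110), Cas-20% (387 ± 139) and Cas-5% (205 ± 44.9), and each neighbouring pair in that order overlapped. Soy-10% and Cas-20%, neighbours in that order, differ in protein source, protein level and sulfur amino acids, and were not tested against each other.

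*Slco2b1* (OATP2B1, a carrier of sulfated steroids and many drugs; chromosome 7 from 99657804 to 99711340, minus strand) gave the smallest adjusted p of the 9 after casein restriction. Its normalized count ran from 1328 through 1544 to 1640 on Cas-20% and from 879 through 978 to 1163 on Cas-5%. On Soy-20% + SAA it ran from 1379 through 1486 to 1879, and on Soy-10% from 1097 through 1148 to 1353. In both comparisons every restricted liver lay below every control, a pattern seen in 7.73% of genes for casein and 3.31% for soy. The log2 fold change was −0.59 (SE 0.07, adjusted p = 2.39e-05) for casein and −0.40 (SE 0.09, adjusted p = 0.00919) for soy. The soy value was −0.23 and no longer called without libraries 3 to 6 (adjusted p = 0.189), and −0.24 with the library GC slope as a covariate (adjusted p = 0.188). The highest *Slco2b1* values of all 30 livers, 1879 and 1752, were in Soy-20% + SAA livers 6 and 5, whose slopes were among the 3 steepest. The third of these libraries, liver 4, stood at 1408. The 3′ end GC of *Slco2b1* was 33.5%, beside a median of 40.5% over 11214 genes. Whether the GC trend raised these values was not tested. Casein restriction was called in each of the 12 fits that left out 1 liver, with log2 fold changes of −0.64 to −0.55. Opposite-strand genes *Gm15635* and *Gm34280* overlap *Slco2b1* and were not analysed here.

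**Figure D2:**
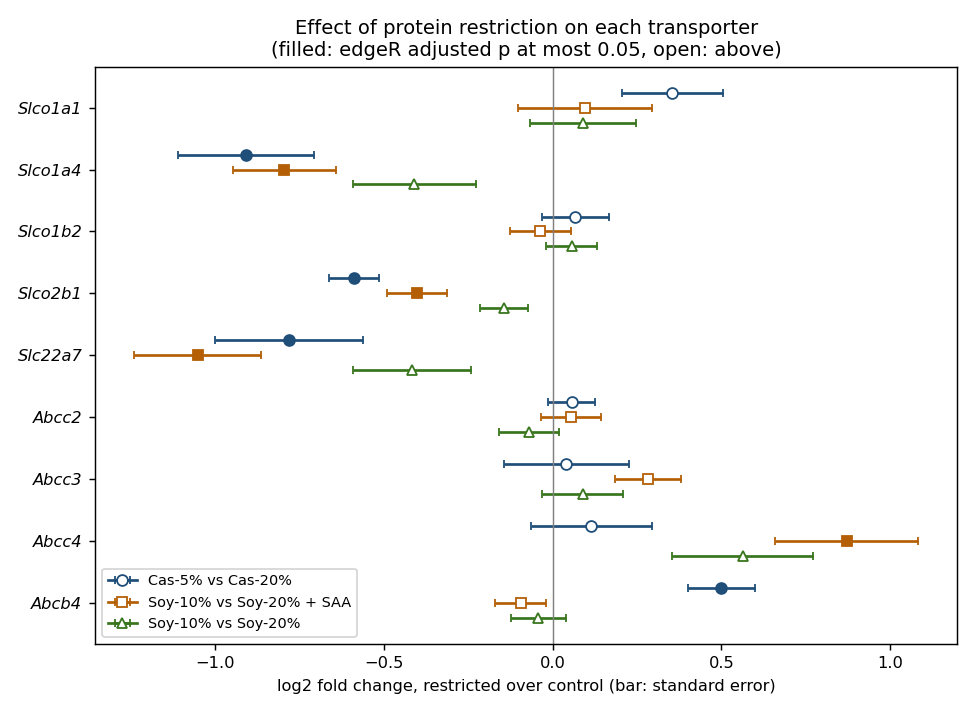
Log2 fold change of each transporter, restricted over control (horizontal axis, bars are the standard error), for casein restriction (circles), soy restriction against Soy-20% + SAA (squares) and soy restriction against Soy-20% (triangles); filled symbols passed an adjusted p of 0.05. *Slco1a4*, *Slco2b1* and *Slc22a7* lie left of 0 in all 3 comparisons, and the triangles are all open.

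*Slc22a7* (OAT2, which takes up organic anions and nucleotides; chromosome 17 from 46432183 to 46438457, minus strand) was measured at low counts, 44 to 175 reads per library. It ran from 88.6 through a median of 130 to 171 on Cas-20% and from 42.7 through 62.9 to 118 on Cas-5%. On Soy-20% + SAA it ran from 66.9 through 118 to 138, and on Soy-10% from 35.5 through 54.7 to 78.2. Livers 4 and 5 of Cas-5%, at 104 and 118, lay within the Cas-20% range, and 1 Soy-20% + SAA liver, at 66.9, lay within the Soy-10% range. The log2 fold change was −0.78 (SE 0.22, adjusted p = 0.0148) for casein and −1.05 (SE 0.19, adjusted p = 0.00311) for soy. Without libraries 3 to 6 the soy value was −0.70 and not called (adjusted p = 0.172). Unsupplemented Soy-20% livers, at 48.1 through 76.6 to 92.0, had a median between those of the other soy diets. Soy-20% + SAA stood 0.63 above Soy-20% on the log2 scale (SE 0.18), which edgeR did not call (adjusted p = 0.0786) and which DESeq2 (adjusted p = 0.0235) and a single fit over 30 livers (adjusted p = 0.042) did. It was 0.28 without libraries 3 to 6 (adjusted p = 0.855) and 0.43 with the GC slope as a covariate (adjusted p = 0.618). Means ordered as Cas-20% (130 ± 30.6), Soy-20% + SAA (114 ± 26.3), Cas-5% (74.4 ± 29.7), Soy-20% (72.9 ± 15.8) and Soy-10% (55.2 ± 13.6), and each neighbouring pair overlapped. The 2 diets with most methionine had the highest means, and a part of methionine in this order was not tested.

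The 2 remaining uptake carriers were not called in any comparison of diet pairs. *Slco1b2* (OATP1B2, the liver-restricted carrier of bile salts, bilirubin conjugates and statins; chromosome 6 from 141629518 to 141686646, plus strand) kept mean normalized counts between 24612 and 26234 in all 5 diets, with log2 fold changes of 0.07 (SE 0.10) for casein and −0.04 (SE 0.09) for soy. *Slco1a1* (OATP1A1, a carrier known to be higher in male liver; chromosome 6 from 141907282 to 141946962, minus strand) had diet means of 3827 to 4845 with SDs of 578 to 1333. Its Cas-20% livers ran from 2581 through 3650 to 5364 and its Cas-5% livers from 4181 through 4777 to 5542, a log2 fold change of 0.35 (SE 0.15, adjusted p = 0.0966) that was called without Cas-20% liver 3 (0.47, adjusted p = 0.0215). On Soy-20% + SAA, livers 5 and 6 stood at 2428 and 2389 and the other 4 at 4091 to 5267. *Slco1a1* and *Slco1b2* have the lowest 3′ end GC of the 9, 25.5% and 25.0%, beside a median of 40.5% over 11214 genes. The highest of the 9 is that of *Slc22a7*, 53.5%. In Soy-20% + SAA liver 4, whose slope was also steep, *Slco1a1* stood at 5076 and *Slco1b2* at 28795. A part of 3′ end GC in these levels was not tested.

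Of the reads on the 4 Slco members in a liver, *Slco1b2* took 76.9% to 85.0% over the 30 livers. The median share of *Slco2b1* was 5.04% on Cas-20% and 3.07% on Cas-5%, and that of *Slco1a4* was 1.19% and 0.663%. On the soy diets the median *Slco1a4* share was 2.52% with SAA, 1.81% without and 1.46% on Soy-10%. Genes with more reads are not thereby more abundant per length, and the shares are given only to compare diets.

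Turning to efflux, *Abcc4* (MRP4, which pumps cyclic nucleotides, urate and sulfated bile salts back to the blood; chromosome 14 from 118482692 to 118706219, minus strand) was the rarest member, with 14 to 58 reads per library. On Soy-10% it ran from 27.4 through a median of 48.1 to 53.5, and on Soy-20% + SAA from 16.3 through 20.4 to 36.3. On Cas-20% it ran from 14.02 through 19.1 to 25.1 and on Cas-5% from 18.4 through 20.8 to 26.4. Soy-10% liver 1 lay among the controls at 27.4 and the other 5 Soy-10% livers above every liver of Soy-20% + SAA. Every Soy-10% liver lay above every Cas-5% liver, as 4.09% of genes did. The log2 fold change was 0.87 for soy restriction (SE 0.21, adjusted p = 0.0148) and 0.11 for casein restriction (SE 0.18, adjusted p = 0.693), and Soy-10% stood 1.04 above Cas-5% (SE 0.17, adjusted p = 0.000714). The difference of the casein and soy effects, −0.76 (SE 0.28), was not called (adjusted p = 0.0821). It was called without Soy-20% + SAA liver 1 (adjusted p = 0.0216) or Soy-10% liver 1 (adjusted p = 0.0437). Without libraries 3 to 6 the soy restriction value was 0.63 and not called (adjusted p = 0.299), and against Soy-20% it was 0.56 (SE 0.21, adjusted p = 0.255).

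The stretch of 250 bases upstream of each *Abcc4* start in RefSeq (GRCm38.p6) was searched, on both strands, for TGACNNNGC, the core letters of the antioxidant response element that NRF2 is known to bind. The sequences are shown because this was the member that rose on Soy-10%, and capitals mark the match, which in the first lies on the opposite strand.
Abcc4, the first start, chr14:118706220-118706469, minus strand: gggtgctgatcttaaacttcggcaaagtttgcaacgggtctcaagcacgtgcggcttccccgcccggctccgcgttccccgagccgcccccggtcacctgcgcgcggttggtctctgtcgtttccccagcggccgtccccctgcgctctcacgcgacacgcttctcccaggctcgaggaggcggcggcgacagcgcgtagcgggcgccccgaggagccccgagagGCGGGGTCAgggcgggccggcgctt
Abcc4, the second start, chr14:118676932-118677181, minus strand: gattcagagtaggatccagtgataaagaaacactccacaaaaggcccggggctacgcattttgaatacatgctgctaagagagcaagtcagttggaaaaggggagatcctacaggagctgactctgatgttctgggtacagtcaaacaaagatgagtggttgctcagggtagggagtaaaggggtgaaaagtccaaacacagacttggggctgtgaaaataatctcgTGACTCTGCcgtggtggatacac
Each window held 1 match, from −25 to −17 and from −23 to −15 relative to its start, and 10.2% of the 32536 promoter windows in the table hold these letters. A match of letters does not show a binding site.

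Among the listed NRF2 targets, 7 of 14 tested rose and 1 fell on Soy-10% against Soy-20% + SAA, with a median log2 fold change of 0.44 beside −0.01 for all genes, where 8.51% of all genes rose and 8.47% fell. The count was 3 of 14 higher and none lower without libraries 3 to 6, with a median of 0.28, beside 2.54% of all genes called. Against unsupplemented Soy-20% 1 rose and none fell, with a median of 0.13, beside 0.866% of all genes called. The 3 with the smallest adjusted p were *Gsta2* (glutathione transferase, 1.03, adjusted p = 0.000682), *Ugdh* (which makes UDP-glucuronate, 0.80, adjusted p = 0.00142) and *Gstm1* (0.51, adjusted p = 0.00212), all of them still called without those libraries. After casein restriction 4 rose and 1 fell, beside 11.6% and 13.3% of all genes, with a median of 0.00 beside 0.02. The rises were led by *Osgin1* (1.22) and by *Gclc* (0.58) and *Gclm* (0.34), the catalytic and modifier subunits of the enzyme that starts glutathione synthesis. Across 30 livers the gene whose log2 CPM was most like that of *Abcc4* was *Ugdh* (Pearson r 0.83), followed by *Entpd5* (0.81) and *Nap1l1* (0.75). The transcript of NRF2 itself, *Nfe2l2*, had log2 fold changes of −0.20 (SE 0.11, adjusted p = 0.23) for soy and −0.03 (SE 0.10, adjusted p = 0.842) for casein. A link of *Abcc4* to NRF2 or to these targets was not tested.

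*Abcc3* (MRP3, the basolateral pump for glucuronides; chromosome 11 from 94343295 to 94392997, minus strand) differed between the restricted diets, which differ in both protein source and protein level. Its Soy-10% livers ran from 493 through a median of 569 to 715 and its Cas-5% livers from 349 through 381 to 531, a log2 fold change of 0.51 (SE 0.11, adjusted p = 0.00437). A single Cas-5% liver, at 531, reached into the Soy-10% range. Soy restriction against Soy-20% + SAA gave 0.28 (SE 0.10, adjusted p = 0.0577), which DESeq2 called (adjusted p = 0.0403). It was 0.17 without libraries 3 to 6 (adjusted p = 0.557) and 0.09 against Soy-20% (adjusted p = 0.842), and casein restriction gave 0.04 (SE 0.18, adjusted p = 0.897). Cas-20% livers varied most, from 267 to 607. The genes most like it across livers were *Plin4* (r 0.84), *Map1lc3a* (0.78) and *Entpd5* (0.78).

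At the canalicular membrane, *Abcb4* (chromosome 5 from 8893717 to 8959231, plus strand) rose with casein restriction and was not called for soy restriction. It ran from 2586 through a median of 3022 to 3760 on Cas-20% and from 3517 through 4457 to 5179 on Cas-5%. On Soy-20% + SAA it ran from 3391 through 3883 to 4599, and on Soy-10% from 3272 through 3723 to 3835. The ranges overlapped on both protein sources, with 1 Cas-5% liver, at 3517, below the highest Cas-20% liver. The log2 fold change was 0.50 (SE 0.10, adjusted p = 0.00119) for casein and −0.09 (SE 0.07, adjusted p = 0.396) for soy. The difference of these effects was 0.59 (SE 0.13, adjusted p = 0.00681), the sole member called in that test, beside 8.69% of all genes. It was called in each of 24 fits that left out 1 liver, without libraries 3 to 6 (0.58, adjusted p = 0.0338), with the GC slope in the model (0.63) and with the unsupplemented soy livers as reference (0.54). Cas-20% had the lowest mean of the 5 diets, 3129 ± 406, and the soy controls had means of 3770 ± 546 without and 3908 ± 423 with added SAA. Soy-10% stood 0.28 below Cas-5% (SE 0.08, adjusted p = 0.029). In the last 300 bases of *Abcb4*, 61 of 251 windows of 50 bases also occur in its paralogs *Abcb1a* or *Abcb1b*, so some of its reads may be shared, and the normalized counts of the paralogs were at most 73.6.

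*Abcc2* (MRP2, which excretes conjugated bilirubin and glutathione conjugates into bile; chromosome 19 from 43782192 to 43840740, plus strand) was not called in either restriction comparison, with log2 fold changes of 0.06 for casein (SE 0.07) and 0.06 for soy (SE 0.09). Cas-5% livers, at 3811 through a median of 4403 to 4540, stood above Soy-10% livers, at 3320 through 3574 to 4023, and these ranges overlapped (−0.27 for Soy-10% over Cas-5%, SE 0.06, adjusted p = 0.0113). In Soy-20% + SAA livers 5 and 6 it stood at 2958 and 2868, the lowest of that diet. The soy restriction value turned to −0.10 without libraries 3 to 6.

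Between the restricted diets 5 of the 9 were called, with *Slco1a4*, *Abcc3* and *Abcc4* higher on Soy-10% and *Abcc2* and *Abcb4* lower, beside 10.7% of all genes (4.59% lower). *Slco1a4*, *Abcc3*, *Abcc4* and *Abcc2* were called in each of the 12 fits that left out 1 liver. *Abcb4* was called in 9 of 12, and lost without Cas-5% liver 3 or 4 or Soy-10% liver 6 (adjusted p up to 0.071). A single fit over 30 livers lost *Abcc2* (adjusted p = 0.0816) and *Abcb4* (adjusted p = 0.0905). *Slco2b1* was 0.22 higher (SE 0.07, adjusted p = 0.0525), and was called by DESeq2 (adjusted p = 0.0296), with RLE size factors (adjusted p = 0.0499) and with liver number as a block (adjusted p = 0.0215). Between the controls, 1 of the 9 was called (*Slco1a4*), beside 2.43% of all genes. Adding sulfur amino acids to Soy-20% called none with edgeR, beside 0.00838% of all genes, while DESeq2 called 1 (*Slc22a7*). In that comparison 3 of the 9 had an unadjusted edgeR p under 0.05, as had 2892 of the 11932 genes tested.

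Promoters of the other genes called in a restriction comparison, with an entry in RefSeq (GRCm38.p6), are shown for 250 bases upstream of the start because *Slco1a4* and *Slco2b1* fell on both restricted diets. Capitals mark TTCNNNGAA, the letters of the element that the growth hormone-driven factor STAT5 is known to bind.
Slco1a4, chr6:141856221-141856470, minus strand: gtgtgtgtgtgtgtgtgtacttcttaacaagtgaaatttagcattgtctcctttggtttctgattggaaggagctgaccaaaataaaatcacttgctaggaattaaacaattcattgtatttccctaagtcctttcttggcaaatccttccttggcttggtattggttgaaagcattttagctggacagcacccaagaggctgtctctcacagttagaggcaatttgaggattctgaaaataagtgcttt
Slco2b1, the first start, chr7:99711341-99711590, minus strand: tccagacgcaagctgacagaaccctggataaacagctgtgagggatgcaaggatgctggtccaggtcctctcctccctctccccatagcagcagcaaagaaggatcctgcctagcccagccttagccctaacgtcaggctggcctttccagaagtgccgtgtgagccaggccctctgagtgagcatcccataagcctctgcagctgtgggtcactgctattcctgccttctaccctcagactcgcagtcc
Slco2b1, the third start, chr7:99695810-99696059, minus strand: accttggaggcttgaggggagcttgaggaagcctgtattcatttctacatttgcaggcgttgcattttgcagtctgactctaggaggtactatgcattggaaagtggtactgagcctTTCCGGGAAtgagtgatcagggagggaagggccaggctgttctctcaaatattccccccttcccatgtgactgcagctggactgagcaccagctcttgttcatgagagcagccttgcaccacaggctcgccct
Abcb4, chr5:8893471-8893720, plus strand: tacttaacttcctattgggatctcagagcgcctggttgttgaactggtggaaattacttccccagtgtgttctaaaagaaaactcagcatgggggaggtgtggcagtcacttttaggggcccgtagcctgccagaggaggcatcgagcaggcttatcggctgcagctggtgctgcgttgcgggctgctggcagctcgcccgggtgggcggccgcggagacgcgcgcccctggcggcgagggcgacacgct
Of these, 1 window held the STAT5 letters, that of the third start of *Slco2b1* from −133 to −125, and 7.04% of all windows hold them. The second start of *Slco2b1*, not shown, held none of the letters searched. Members that were not called on restriction held matches too: *Slco1b2* held the STAT5 letters from −206 to −198, and *Abcc2* held TGACNNNGC from −98 to −90. None of the 4 held TGACNNNGC or the other elements searched, which were AGGTCA repeated after 1 base (PPARα, HNF4α) or 4 bases (CAR, LXR), AGGTCA facing its reverse complement across 1 base (FXR) and GTTAAT facing its reverse complement across 1 base (HNF1), each found in at most 0.034% of all windows. Entries matched 7 of the 9 members, and those of *Slc22a7* and *Abcc3* were not among them.

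Other listed carriers and pumps were called in both directions. Of all genes, 11.6% rose and 13.3% fell after casein restriction, and 8.51% rose and 8.47% fell after soy restriction against Soy-20% + SAA. Of 14 other uptake carriers tested after casein restriction, 1 rose and 3 fell, with a median log2 fold change of −0.07. The smallest adjusted p belonged to *Slc22a15* (−1.24, adjusted p = 6.91e-07), *Slc22a18* (−0.95, adjusted p = 2.11e-06) and *Slc22a3* (OCT3, a carrier of organic cations, −1.43, adjusted p = 0.000186). After soy restriction against Soy-20% + SAA, 2 of 15 rose and 2 fell (1 of 16 rose and none fell without libraries 3 to 6, and none of 14 was called against Soy-20%), with *Slco2a1* (the prostaglandin carrier, 0.87, adjusted p = 0.000675), *Slc22a5* (OCTN2, the carnitine carrier, 1.02, adjusted p = 0.00142) and *Slc22a3* (−0.81, adjusted p = 0.00797) leading. Of 13 other efflux genes, *Abcc10* rose (0.57, adjusted p = 0.0147) and *Slc47a1* (MATE1, the proton-driven exporter of organic cations) fell by 1.12 (adjusted p = 8.86e-08) after casein restriction. After soy restriction 3 of 13 rose and 1 fell (none rose and 1 fell without libraries 3 to 6, and none was called against Soy-20%), and *Slc47a1* fell by 0.38 (adjusted p = 0.0129), *Abcc1* rose by 0.84 (adjusted p = 0.0197) and *Abcg5*, a sterol exporter subunit, rose by 0.33 (adjusted p = 0.0277). Casein and soy effects differed for *Slc47a1* (−0.75, adjusted p = 0.000832), *Slc22a15* (−1.32, adjusted p = 0.00141), *Slc22a18* (−0.63, adjusted p = 0.00529) and *Abcg5* (−0.51, adjusted p = 0.0378). Without libraries 3 to 6 *Slco2a1* and *Slc47a1* were still called on Soy-10%, as were the differences of effects for *Slc47a1*, *Slc22a15* and *Slc22a18*, and the other calls named for soy or for the difference were lost. Of 7 scaffold proteins of transporters tested, *Slc9a3r1* (NHERF1) fell after casein restriction (−0.46, adjusted p = 8.89e-05) and none was called after soy restriction against either control.

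**Figure D3:**
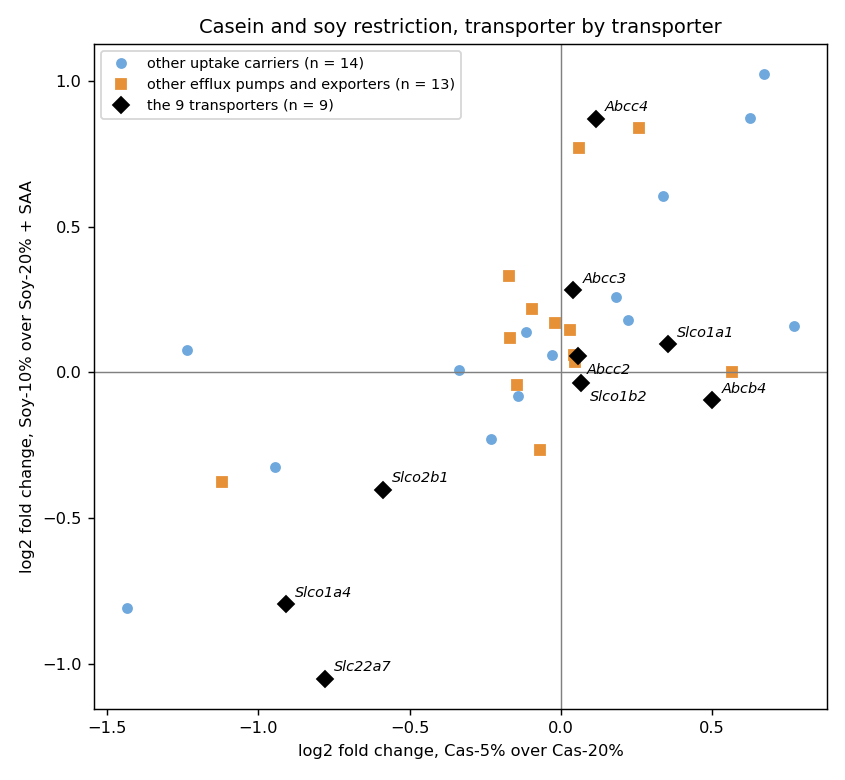
Log2 fold change on casein restriction (horizontal axis) against that on soy restriction with Soy-20% + SAA as control (vertical axis) for the 9 transporters (diamonds) and the listed other uptake carriers (circles) and efflux genes (squares). *Slco1a4*, *Slco2b1* and *Slc22a7* lie at the lower left, *Abcc4* near 0 for casein and at 0.87 for soy, and *Abcb4* at 0.50 for casein and −0.09 for soy.

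Among 19 transcription factors known to act on transporter genes, 3 rose and 2 fell after casein restriction, and 1 rose and 2 fell after soy restriction against Soy-20% + SAA, where none of the 19 was called without libraries 3 to 6 or against Soy-20%. Of all genes, 11.6% rose and 13.3% fell after casein restriction, and 8.51% rose and 8.47% fell after soy restriction against Soy-20% + SAA. *Ahr* (0.70, adjusted p = 0.000192) and *Hnf4a* (0.27, adjusted p = 0.00496) rose and *Nr1h3* (LXRα) fell (−0.28, adjusted p = 0.00399) on Cas-5%. On Soy-10% *Ppara* (−0.52, adjusted p = 0.00729) and *Nr1i2* (PXR, −0.36, adjusted p = 0.0308) fell and *Nr1h4* (FXR, 0.34, adjusted p = 0.0185) rose. Listed CAR and PXR targets went in both directions after casein restriction, with 3 of 11 higher and 3 lower, among them *Gadd45b* (2.96), *Cyp3a11* (1.06) and *Cyp2a5* (−0.99). After soy restriction against Soy-20% + SAA 4 of 11 rose and none fell, beside 8.51% of all genes higher. The count was 2 higher and none lower without libraries 3 to 6, beside 2.54% of all genes called. Against Soy-20% it was 1 higher and none lower, beside 0.866%. Between the restricted diets 7 of 11 were higher on Soy-10% and 2 lower, beside 6.14% and 4.59% of all genes. The higher ones were led by *Ces2a* (1.31, adjusted p = 4.39e-08), *Cyp3a11* (1.35, adjusted p = 4.30e-07) and *Cyp2a5* (1.29, adjusted p = 5.76e-05). *Slco1a4* was 1.15 higher in that comparison, whereas after casein restriction its value was −0.91 and *Cyp3a11* rose. A link between *Slco1a4* and these targets was not tested. Of 14 male-biased liver genes, 4 fell and none rose after casein restriction and 1 fell after soy restriction, with *Cyp4a12b* (−3.40 and −2.07) lowest in adjusted p in both, while *Slco1a1* was not called in either. Of the female-biased genes 5 were tested for casein, where 2 rose and 2 fell, and 3 for soy, where 1 fell. On Soy-10%, 2 of 14 male-biased and 2 of 5 female-biased genes fell and none rose without libraries 3 to 6.

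By likeness across the 30 livers, *Slco2b1* had the closest partners of the 9, *Dmgdh* (r 0.93), *Echs1* (0.93) and *H2-Q10* (0.92). *Slco1a4* was most like *Cyp3a59* (0.84), *Osbpl3* (0.84) and *Tmem220* (0.83), and *Slco1a1* most like *Lipc* (0.84), *Hsd3b5* (0.81) and *Mup11* (0.80). The partners of *Slc22a7* were *Gulo* (0.80), *Chic1* (0.76) and *Cenpm* (0.75), and those of *Abcc2* were *Hgf* (0.84), *Dsc2* (0.82) and *Arhgef12* (0.74). The partners of *Abcb4* included *Tmcc1* (0.73) and *Serinc2* (0.73), and *Slco1b2* was most like *Mettl6* (0.68), *Acbd5* (0.67) and *Ikzf5* (0.66). These are among the highest of 12561 genes, over livers that share diets and library traits, and are given as a description.

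Cell markers moved with casein restriction too, where 11.6% of all genes were called higher and 13.3% lower. The summed level of 6 stellate cell markers was 390 to 532 CPM on Cas-5% and 271 to 385 CPM on Cas-20%. That of 7 sinusoidal endothelial markers was 305 to 337 and 235 to 275 CPM, and both sums were without overlap. By gene, 2 of 6 and 2 of 7 were called higher and none lower (median log2 fold changes 0.31 and 0.18). Sums in CPM are scaled to the library total alone, unlike the normalized counts and fold changes. Whether the sums overlap on that other scale was not tested. Of 5 red blood cell markers 4 were called lower on Cas-5% (median log2 fold change −0.62). Their sums still overlapped, at 1134 to 2041 CPM on Cas-5% and 1393 to 3087 CPM on Cas-20%. On Soy-20% + SAA 4 were called lower than on Cas-20% (median −0.77), beside 170 of 11988 genes tested. *Slco1a4* was called higher in that comparison. Most calls between these controls, that of *Slco1a4* among them, were lost without the Soy-20% + SAA libraries that stood apart by GC slope. The marker calls in that setting are not given here. Kupffer cell or macrophage markers, 8 genes, overlapped at 331 to 466 and 258 to 427 CPM. The summed hepatocyte markers stood at 76610 to 94599 CPM on Cas-5% and 64847 to 71800 CPM on Cas-20%, but of the 7 genes *Alb* was called higher (0.35), *Cps1* was called lower (−1.40) and the median log2 fold change was −0.06. Between the restricted diets, 4 of 6 stellate cell markers were called lower on Soy-10% (median −0.36), beside 4.59% of all genes. Their sums of 326 to 383 CPM on Soy-10% lay below those of all Cas-5% livers. On the soy diets, 5 of 6 cholangiocyte markers summed to 25.2 to 33.6 CPM on Soy-10% and 31.0 to 48.0 CPM on Soy-20% + SAA. The part of these shifts in the transporter values was not tested.

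**Figure D4:**
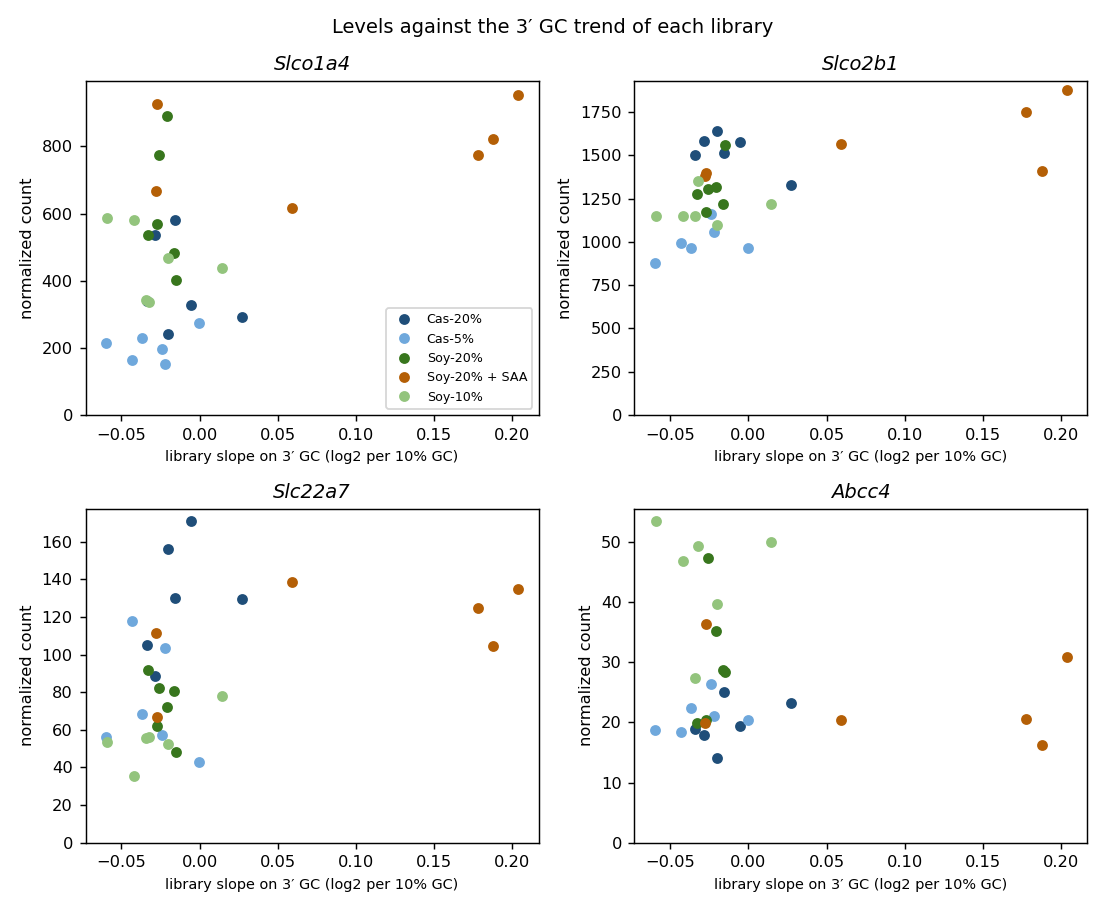
Normalized counts of *Slco1a4*, *Slco2b1*, *Slc22a7* and *Abcc4* (vertical axes) against the slope of each library's gene levels on 3′ GC content (horizontal axis, log2 per 10% GC), with 30 livers coloured by diet. Soy-20% + SAA libraries 3 to 6 lie apart at slopes of 0.059 to 0.204, and the 2 highest *Slco2b1* values are among them.

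The soy restriction calls of *Slco2b1*, *Slc22a7* and *Abcc4* were lost without these libraries, a setting that leaves 2 Soy-20% + SAA livers and called 317 genes in place of 2035. The direction of these 3 genes was the same with either set of libraries, with the GC slope in the model, and against unsupplemented soy.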

How the data were processed

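Liver RNA libraries were made with the Lexogen QuantSeq 3′ kit and processed by the authors with the Lexogen QuantSeq pipeline 2.3.6, and the aligner is not given in the sources used here. The deposited raw counts are reads assigned to genes by the authors, without normalization. The deposited normalized signal is those counts divided by DESeq2 size factors (0.759 to 1.297). Both tables hold 14173 genes, with at least 90 counts over 30 livers. Members and gene lists were chosen with earlier results of these data known. Livers were grouped by diet as labelled.

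Counts were tested in R 4.3.3 with edgeR 4.0.16 (filterByExpr, TMM, two-sided quasi-likelihood F test, Benjamini-Hochberg adjustment, threshold 0.05). Alternatives were DESeq2 1.42.0, RLE size factors, no filter, 1 fit over 30 livers, a replicate block, the library slope on GC content of the last 200 bases as a covariate, Soy-20% + SAA libraries 3 to 6 left out, Soy-20% as soy control, and each liver left out. Counts were also simulated with 200 genes changed, whereas the data called 3008 for casein restriction. On simulated counts for casein restriction, 82 of 100 genes changed by 1 on the log2 scale and 57 of 100 changed by 0.6 were called among 12076. Between the controls edgeR called 79 and 44 of 100, and for the difference of effects 63 and 29 of 100. All 9 transporters were named, with up to 3 called genes of each list per comparison by smallest adjusted p, and the 3 genes of highest Pearson r of log2 CPM (prior count 2), 1 of which is not reported here. Promoters are from RefSeq, whose starts can differ from those of GENCODE M21, and gene positions equal GENCODE M21. The counts of listed genes without libraries 3 to 6 were chosen after seeing the data.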

Additional observations from a re-analysis of the deposited data

Results flagged for a closer look

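The effect of casein restriction on *Abcb4* differed from that of soy restriction: the difference was 0.59 on the log2 scale (SE 0.13, edgeR adjusted p = 0.00681), with values of 0.50 on casein and −0.09 on soy. It was called in each of 24 fits that left out 1 liver.

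Single livers far from the other 5 of their diet, by Dixon's criterion for 6 values, occurred in 2 of the 45 member and diet groups, and chance flags about 1 in 20 groups. Soy-20% liver 1 had a normalized *Slco2b1* count of 1561, against 1175 to 1317 in the others. Soy-10% liver 6 had an *Abcb4* count of 3272, against 3644 to 3835 in the others.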

How the results depend on the processing

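Of the 15 transporter values called between diet pairs or between protein sources, none reversed under any alternative run. The 4 casein calls held under every alternative and in each fit that left out 1 liver. Diets share liver numbers 1 to 6, which name livers and do not pair them: deviations of same-numbered livers correlated at −0.155 to 0.183, not all above 0.1 in any comparison, and 0 to 4 of the 12 livers of a comparison deviated most like the liver of their own number. With the number as a replicate block all 15 stayed called, *Slco2b1* joined them between the restricted diets (6 transporters, edgeR adjusted p = 0.0215), and the genes called between the controls fell from 291 to 141. Soy calls depended on Soy-20% + SAA libraries 3 to 6. With the GC slope as a covariate, genes called went from 2035 to 360 for soy restriction (1 of the 9 transporters), from 1 to 0 for supplementation, from 291 to 5 between controls (0 transporters), from 1089 to 534 for the difference of both effects and from 5450 to 3542 over 5 diets. Without libraries 3 to 6 the counts were 317 (1 transporter), 0, 3 (0 transporters), 296 and 3433. Fewer samples are part of that setting. In the other settings the cause was not tested. A single fit over 30 livers gave 3077 genes for soy restriction, 62 against Soy-20%, 1793 for supplementation (2 transporters), 2331 between controls (3 transporters) and 3 transporters in place of 5 between the restricted diets. DESeq2 gave 216 against Soy-20%, 873 for supplementation (1 transporter) and 1130 between controls (2 transporters). RLE size factors or no filter gave 2 for supplementation. Soy-20% as reference gave 2 transporters in the difference of effects, adding *Slco2b1* (−0.45, edgeR adjusted p = 0.00846).

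Signs turned for some values that were called in neither fit. With the GC slope these were *Slco1b2* (−0.010) and *Abcc3* (−0.14) for casein, *Slco1a1* (−0.17) and *Abcc2* (−0.10) for soy, *Slco1a1* (0.29) and *Abcc2* (0.030) for supplementation, *Slco2b1* (−0.083) between controls and *Abcc2* (0.13) for the difference of effects. Without libraries 3 to 6 they were *Slco1a1* (−0.082) and *Abcc2* (−0.10) for soy, *Slco1a1* (0.17) and *Abcc2* (0.028) for supplementation, *Slco2b1* (−0.13) between controls, and *Slc22a7* (−0.088) and *Abcc2* (0.15) for the difference. With Soy-20% as reference they were *Slc22a7* (−0.37, from 0.26) and *Abcc2* (0.12).

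Leaving out 1 liver gave 1219 to 3119 genes for soy restriction, lowest without Soy-20% + SAA liver 5 and highest without liver 1, and 50 to 146 against Soy-20%. It gave 0 to 1587 for supplementation (0 to 1 transporter), 9 to 1817 between controls (0 to 2 transporters) and 719 to 1941 for the difference (1 to 2 transporters), each highest without Soy-20% + SAA liver 1. Values that changed sign ran from −0.057 to 0.20 for *Abcc3* and −0.012 to 0.13 for *Slco1b2* (casein), −0.082 to 0.022 for *Slco1b2* and −0.017 to 0.18 for *Slco1a1* (soy), −0.085 to 0.021 for *Abcb4* (soy against Soy-20%), −0.094 to 0.12 for *Slco1a1* (supplementation), −0.0054 to 0.20 for *Slco1a1* and −0.027 to 0.071 for *Slco2b1* (controls), −0.043 to 0.011 for *Slco1b2* (restricted diets), and −0.23 to 0.036 for *Slco1a4* and −0.059 to 0.047 for *Abcc2* (difference of effects). Counts of *Abcc4* and *Slc22a7* were low, which limits their precision.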
